A study of Mus musculus with 60 samples.

Results

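Saa3, Lcn2, Cp, Steap4 and Serpina3n are 5 genes of the acute phase and metal-handling response, and their RNA was followed in mouse cancer-associated fibroblasts (CAFs) under 8 culture conditions. They were picked by name from 48440 genes, because their levels had already been seen to separate these conditions. Their levels and fold changes are therefore a description and carry no p-value. How many of them passed the threshold is given only beside the share of all genes that did, and p-values are kept for other genes.

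All groups held CAFs that had been purified by flow sorting ahead of lysis, and the study asked how different lung cancer cells change them. In the Boyden chamber, where a porous membrane separates the cell layers, CAFs were grown with 344SQ cells, with 393P cells or alone, with 5 replicates each. In multicellular aggregates, where the cells touch, the same 3 conditions had 3 replicates each, and the CAFs-alone libraries were titled CAF-GFP. A second set of aggregates paired CAFs with 344SQ cells carrying an shRNA named shZEB1 or the control shRNA named shCTL, with 3 replicates each. 344SQ and 393P are mouse lung adenocarcinoma cell lines, and 344SQ is known as the metastatic line of the pair. The shRNA acted in the cancer cells, not in the CAFs. The labels call the CAFs tCAFs and number the replicates as biological, but do not say whether these came from separate isolates. A p-value here judges a group difference against the spread between these samples, and its reach to other isolates is not known.

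The acute phase response is the rise of secreted defence proteins after infection or injury, driven in the liver and in stromal cells by interleukin-1, interleukin-6 and tumour necrosis factor. These cytokines act through the transcription factors NF-kB, STAT3 and the C/EBP family. Saa3 encodes a serum amyloid A protein made mainly outside the liver, and Lcn2 encodes lipocalin 2, which withholds iron from bacteria by binding their siderophores. Cp encodes ceruloplasmin, a copper enzyme that oxidises iron, Steap4 encodes a membrane metalloreductase of iron and copper, and Serpina3n encodes a secreted inhibitor of serine proteases.

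The genes lie apart from each other on GRCm38. In GENCODE M21, Saa3 spans chr7:46711998-46715700 on the minus strand, Lcn2 spans chr2:32384633-32388252 on the minus strand, and Cp spans chr3:19957054-20009145 on the plus strand. Steap4 spans chr5:7960457-7982213 and Serpina3n spans chr12:104406729-104414329, both on the plus strand. Exons of Cp overlap exons of Hps3 on the opposite strand, and the strand setting of the counting is not given. Cp counts may thus hold Hps3 reads or lack Cp reads from the overlap. Hps3 passed the threshold in none of the 6 comparisons that tested it, with log2 changes between -0.27 and 0.24. These values do not show how reads of the overlap were counted.

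The bases upstream of 4 of the genes are shown: Saa3 and Lcn2, which had the largest folds with 344SQ cells, Steap4, whose order of groups turned round between culture formats, and Serpina3n, which did not follow the others. They show how unequally the letters of the factors named above were spread over these genes. The windows are RefSeq sequence of GRCm38.p6, read 5′ to 3′ on the strand of the gene. The first letter of each is base -250 from the RefSeq start, and a window is cut short where it meets an annotated UTR, which left 226 bases for Saa3, 192 for Lcn2, 235 for Steap4 and 250 for Serpina3n. They are chr7:46715701-46715926 for Saa3, chr2:32387798-32387989 for Lcn2, chr5:7960222-7960456 for Steap4 and chr12:104406458-104406707 for Serpina3n. The Lcn2 window lies inside the GENCODE span given above, which reaches further upstream than the RefSeq start. Capitals mark matches to TTNNGCAA (C/EBP), TTCCNGGAA (STAT) or the NF-kB consensus on either strand.
Saa3: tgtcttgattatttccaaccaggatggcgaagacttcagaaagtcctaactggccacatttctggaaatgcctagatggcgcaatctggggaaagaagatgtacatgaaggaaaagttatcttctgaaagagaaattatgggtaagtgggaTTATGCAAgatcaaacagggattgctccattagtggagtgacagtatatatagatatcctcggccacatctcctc
Lcn2: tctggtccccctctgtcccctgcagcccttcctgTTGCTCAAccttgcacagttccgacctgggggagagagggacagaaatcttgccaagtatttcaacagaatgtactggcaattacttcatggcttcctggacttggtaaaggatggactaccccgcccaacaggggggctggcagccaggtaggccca
Steap4: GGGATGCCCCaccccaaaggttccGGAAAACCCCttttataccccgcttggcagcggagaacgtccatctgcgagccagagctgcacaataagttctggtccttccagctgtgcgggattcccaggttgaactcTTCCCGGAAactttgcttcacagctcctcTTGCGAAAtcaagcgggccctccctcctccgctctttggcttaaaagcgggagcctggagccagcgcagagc
Serpina3n: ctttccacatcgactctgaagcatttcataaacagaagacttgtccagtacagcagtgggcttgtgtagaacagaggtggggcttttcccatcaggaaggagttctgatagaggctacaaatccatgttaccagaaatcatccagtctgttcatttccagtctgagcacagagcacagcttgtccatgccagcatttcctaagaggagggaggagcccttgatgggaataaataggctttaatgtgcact
In windows of 250 bases before to 50 after each RefSeq start, the C/EBP letters were found in 4 of the 6 promoters of the 5 genes, which are 1 each for Saa3, Lcn2 and Steap4 and 1 of the 2 of Cp. They were found in 10.8% of 32851 promoters of all genes. The Saa3 match lies at bases -99 to -92 from the RefSeq start, and the Lcn2 match at -216 to -209. The NF-kB consensus was found in 1 of the 6, that of Steap4, against 8.46% of all promoters, with matches at -250 to -241 and at -226 to -217. The STAT letters were also in 1 of the 6, again that of Steap4, at -116 to -108, against 1.15% of all. No 2 matches overlapped. The Serpina3n window held none of these letters. A match describes the letters only.

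Sequencing depth differed between the 3 sets. Boyden replicates, each summed over 3 technical libraries, held 4182944 to 8542262 counts, the aggregates of the first set 757717 to 1258751, and the shRNA aggregates 739530 to 2144803. Levels are read counts normalised for depth (CPM), with edgeR's TMM scaling fitted separately in each of the 3 sets, so a level in one set is not on the scale of another. Fibroblast markers were abundant in every group, with 9 or 10 of 10 detected, but their summed level differed between groups. In the Boyden chamber it was 5053 to 5626 CPM with 344SQ cells and 5350.3 to 5800.1 CPM with 393P cells, below the 6534 to 7159.5 CPM of CAFs alone. In the first aggregates it was 4436 to 5037 CPM with 344SQ cells and 7206 to 8785.5 CPM with 393P cells, against 3795 to 6109 CPM in CAFs alone. In the shRNA aggregates it was 2347 to 3731 CPM with shZEB1 and 1350.05 to 4996 CPM with shCTL. The part of these differences in the results was not tested. Of 8 markers of neutrophils, a known source of Lcn2, S100a9 and Ly6g were at 0 counts in all 8 groups. In the Boyden chamber 6 of the 8 were detected with 344SQ cells, 3 with 393P cells and 4 in CAFs alone. Their summed level was 1.15 to 1.53 CPM with 344SQ cells, above the 0.279 to 0.64 CPM with 393P cells and the 0.274 to 0.624 CPM in CAFs alone, and its part in the Lcn2 values was not tested. Hepatocyte markers summed to at most 1.47 CPM, with Alb at 0 everywhere. In the shRNA aggregates, the sum of 12 carcinoma markers was 36.0, 1019.6 and 446.6 CPM with shZEB1 and 62.9, 49.6 and 1429 CPM with shCTL, so 3 of these 6 libraries stood apart, and values from them are given library by library.

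In the Boyden chamber, CAFs with 344SQ cells held far more RNA of Saa3, Lcn2, Cp and Steap4 than CAFs alone or CAFs with 393P cells, whereas Serpina3n did not share this pattern. Saa3, the serum amyloid gene, measured 2239.8, 1818, 2025.5, 2417 and 2411 CPM with 344SQ cells. It measured 34.5, 36.3, 27.3, 27.4 and 38.4 CPM with 393P cells and 51.9, 59.6, 44.8, 44.1 and 73.1 CPM in CAFs alone. The 3 groups did not overlap, and 393P was the lowest. The log2 change was 5.32 ± 0.13 (SE) for 344SQ against CAFs alone, which is 39.9-fold, and -0.74 ± 0.13 for 393P against CAFs alone. In bulk RNA, more cells that express a gene and more RNA per cell cannot be told apart, here and in all results that follow.

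Lcn2, the siderophore-binding lipocalin, went with Saa3 with 344SQ cells but started from almost no reads. It measured 26.6, 26.2, 22.9, 22.9 and 22.8 CPM with 344SQ cells. It had 3, 1, 1, 1 and 2 counts with 393P cells, and 0, 0, 0, 1 and 2 counts in CAFs alone. Every 344SQ replicate was far above both other groups, which overlapped each other. Over all replicates the totals were 602 counts with 344SQ cells and 3 in CAFs alone, a ratio of 313 after scaling with a 95% counting interval of 107 to 1524. With 393P cells the total was 8 counts, and the ratio to CAFs alone was 3.09 with an interval of 0.741 to 18.1. These intervals cover counting error only.

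The metal-handling genes also stood higher with 344SQ cells, by smaller factors. Cp, the iron-oxidising ceruloplasmin, measured 43.0, 25.9, 39.4, 31.9 and 42.2 CPM with 344SQ cells, 6.42, 5.44, 6.32, 6.998 and 7.82 CPM with 393P cells, and 3.28, 3.70, 5.08, 5.51 and 6.61 CPM in CAFs alone. Its log2 change against CAFs alone was 2.89 ± 0.16 with 344SQ cells and 0.43 ± 0.20 with 393P cells. The 344SQ values lay above all others, and the 393P and CAFs-alone values overlapped. Steap4, the metalloreductase, measured 38.8, 27.4, 36.1, 31.0 and 24.9 CPM with 344SQ cells, 5.86, 4.80, 4.74, 4.11 and 5.94 CPM with 393P cells, and 2.83, 2.88, 2.83, 3.26 and 4.87 CPM in CAFs alone. Its log2 change was 3.23 ± 0.16 with 344SQ cells and 0.61 ± 0.20 with 393P cells. The order of the groups was the same as for Cp, and 393P overlapped CAFs alone only through CAFs-alone replicate 5.

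Serpina3n, the protease inhibitor, had its highest mean in CAFs alone. It measured 26.6, 19.8, 17.7, 20.5 and 24.4 CPM with 344SQ cells, 16.6, 11.2, 12.5, 12.3 and 14.2 CPM with 393P cells, and 26.1, 20.6, 23.8, 22.3 and 29.1 CPM in CAFs alone. The 344SQ and CAFs-alone values overlapped, with a log2 change of -0.16 ± 0.12. All 393P values lay below both other groups, at -0.86 ± 0.12 against CAFs alone.

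Set directly against 393P cells, 344SQ cells left all 5 genes higher, with log2 differences of 6.05 ± 0.13 for Saa3, 6.55 ± 0.25 for Lcn2, 2.45 ± 0.16 for Cp, 2.63 ± 0.15 for Steap4 and 0.70 ± 0.13 for Serpina3n. At an adjusted p under 0.05, 5 of the 5 were called higher there, where 3.88% of 14040 genes were called in either direction and 2.52% higher. For 344SQ against CAFs alone, 4 of the 5 were called higher and 0 lower, against 14.9% of genes called, 7.43% higher and 7.44% lower. For 393P against CAFs alone, 1 was called higher and 2 lower, against 15.6% of genes called, 7.68% higher and 7.96% lower. The 1 higher was Steap4, and it was no longer called with a replicate block or without any 1 of CAFs-alone replicates 1 to 4 or 393P replicates 1, 2 and 5. The genes were chosen for these values, so nothing is read from these counts. Both lines share the CAFs-alone libraries. Carcinoma markers summed to 20.3 to 40.4 CPM with 344SQ cells, 9.43 to 79.0 CPM with 393P cells and 15.6 to 26.8 CPM in CAFs alone, with Cldn3 at 0 counts in all 3 groups, and their part in these values was not tested.

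**Figure D1:**
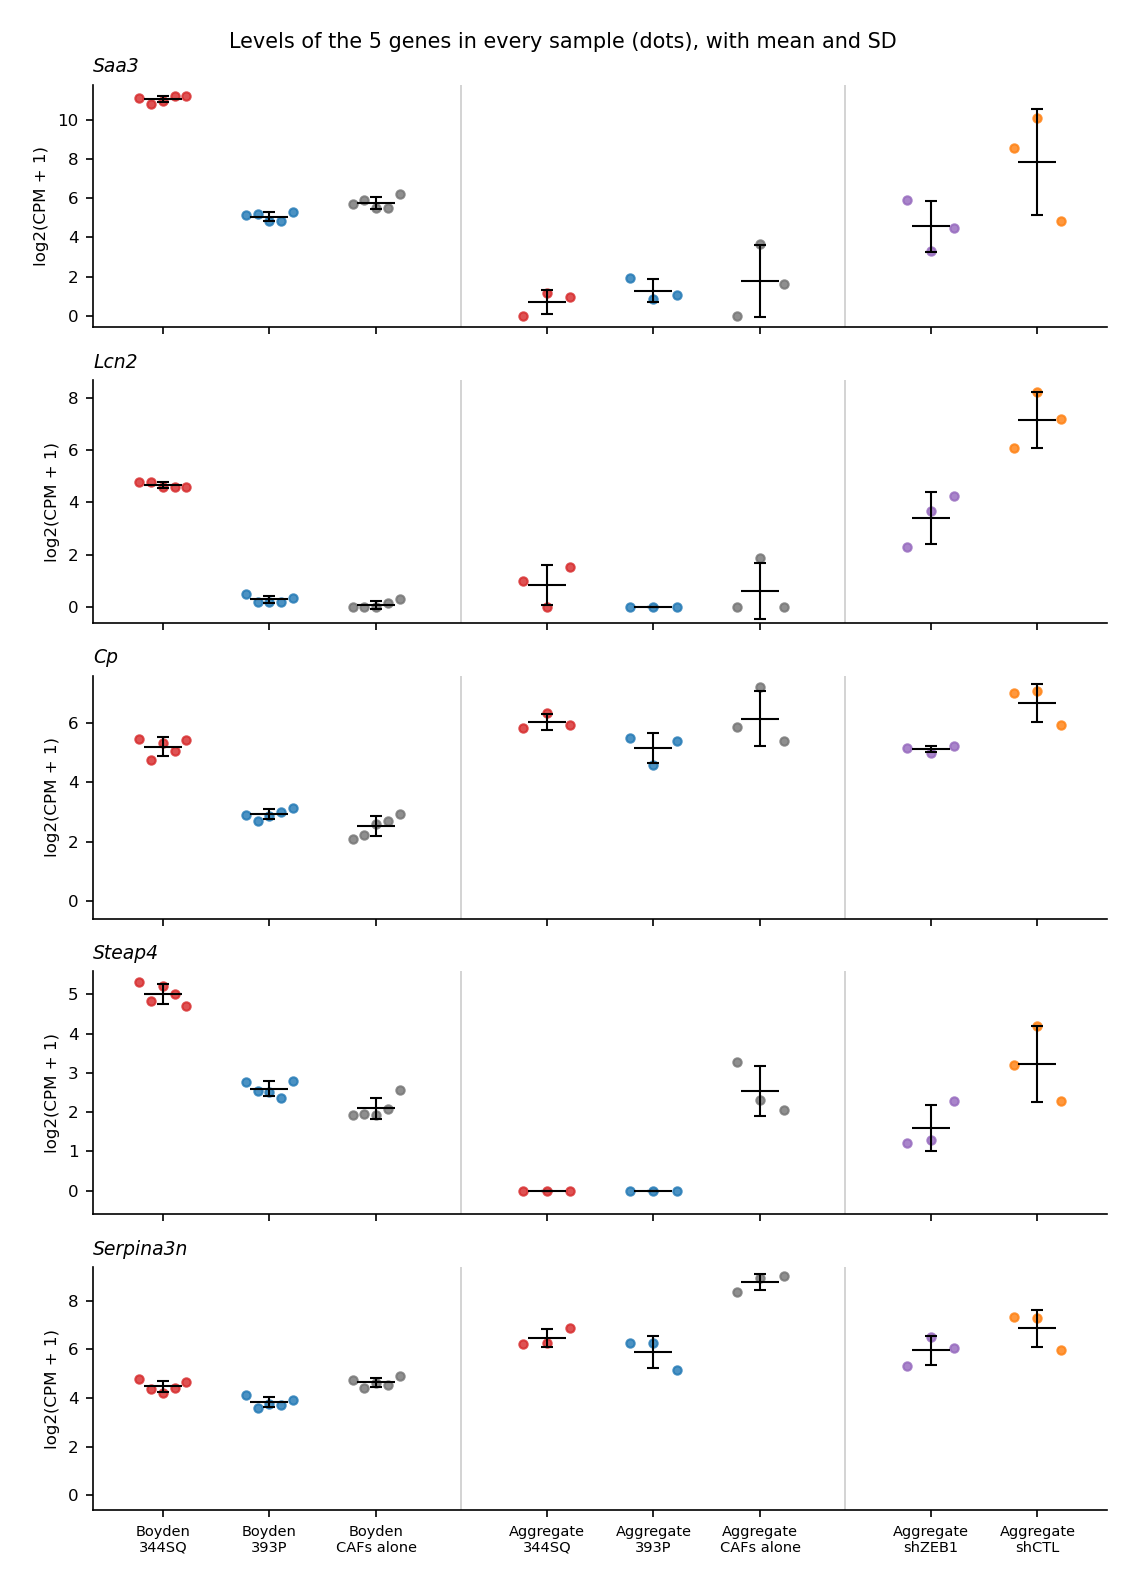
Level of each of the 5 genes, as log2(CPM + 1), in every sample of the 8 groups. Dots are samples, bars are the mean and SD of the log2 values, and vertical lines part the 3 sets, which were scaled separately. In the Boyden chamber the 344SQ dots lie above all others for Saa3, Lcn2, Cp and Steap4, and in the first aggregates the CAFs-alone dots lie highest for Steap4 and Serpina3n.

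Saa3 dominated the joint output of the 5 genes in the chamber. It made up 94.3 to 95.8% of their summed CPM with 344SQ cells, 53.6 to 62.7% with 393P cells, and 58.6 to 68.7% in CAFs alone. Per kilobase of annotated exon, the mean level of Saa3 was 837 CPM with 344SQ cells, and Serpina3n came next at 10.6 CPM, Steap4 at 10.03 CPM, Lcn2 at 9.26 CPM and Cp at 3.81 CPM. In CAFs alone the order per kilobase was Saa3 at 20.99 CPM, Serpina3n at 11.8 CPM, Steap4 at 1.06 CPM, Cp at 0.506 CPM and Lcn2 at 0.0286 CPM. Serpina3n thus held the place after Saa3 in both groups, while Lcn2 stood last in CAFs alone and ahead of Cp with 344SQ cells.

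The technical libraries of a replicate spread most for Lcn2 among the 5 genes with 344SQ cells. With 344SQ cells, the highest of 3 technical libraries exceeded the lowest by a median factor of 1.504 for Saa3, 2.63 for Lcn2, 1.32 for Cp, 1.39 for Steap4 and 1.62 for Serpina3n. Single technical libraries with 344SQ cells ran between 7.17 and 33.6 CPM for Lcn2, against 0 to 1.08 CPM with 393P cells and 0 to 0.477 CPM in CAFs alone. The lowest 344SQ library thus still lay above the highest of the other groups. With only the first technical library of each replicate, Serpina3n turned to 0.29 for 344SQ against CAFs alone.

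Relatives of the 5 genes differed in abundance. Saa1, Saa2 and Saa4, the other serum amyloid genes, had 8, 9 and 16 counts in all 15 Boyden replicates together. Among 7 other Serpina3 genes, Serpina3g had 542 counts over the Boyden replicates and each of the rest at most 96. Steap1, Steap2 and Steap3, the relatives of Steap4, had 5997, 29748 and 1630 counts, and Heph, a ferroxidase related to Cp, had 966. How multi-mapped reads were treated is not given in the sources used here.

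In the first aggregates, the same genes showed another picture: Saa3 and Lcn2 were almost unread in all 3 conditions, and Steap4 and Serpina3n were lower with either cancer line than in CAFs alone. Saa3 had 0, 1 and 1 counts with 344SQ cells, 3, 1 and 1 with 393P cells, and 0, 9 and 2 in CAFs alone. Lcn2 had 1, 0 and 2 counts with 344SQ cells, 0 in each library with 393P cells, and 0, 2 and 0 in CAFs alone. For both genes the groups overlapped, and with a floor of 3 counts over a group no difference was detectable for Lcn2 at this depth. For Saa3 the ratio to CAFs alone was 0.182 with a 95% counting interval of 0.0196 to 0.834 with 344SQ cells and 0.398 with an interval of 0.108 to 1.24 with 393P cells, and 9 of the 11 CAFs-alone counts came from replicate 2.

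Steap4 had 0 counts in all 6 co-culture libraries and 10, 3 and 3 counts in CAFs alone. Against a floor of 3 counts over the group, that is at least 5.32-fold lower with 344SQ cells and at least 6.09-fold lower with 393P cells. Both co-cultures thus lay below every CAFs-alone library, the reverse of the Boyden order. Neither Saa3, Lcn2 nor Steap4 passed the filter on low counts in this set, so 2 of the 5 genes were fitted.

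Cp measured 55.5, 80.0 and 60.6 CPM with 344SQ cells, 44.1, 23.0 and 40.7 CPM with 393P cells, and 56.9, 145.4 and 40.8 CPM in CAFs alone. CAFs alone overlapped both co-cultures, and only 344SQ and 393P did not overlap, with a log2 difference of 0.87 ± 0.33. Against CAFs alone the log2 change was -0.27 ± 0.31 with 344SQ cells and -1.14 ± 0.32 with 393P cells. Both rested on CAFs-alone replicate 2, and without it the values were 0.39 with 344SQ cells and -0.47 with 393P cells, which was then not called, nor was it without 393P replicate 2, at -0.89.

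Serpina3n measured 74.0, 75.2 and 116.6 CPM with 344SQ cells, 75.1, 76.9 and 34.5 CPM with 393P cells, and 332.6, 485.0 and 512.2 CPM in CAFs alone. CAFs alone lay far above both co-cultures, which overlapped each other. The log2 change was -2.31 ± 0.22 with 344SQ cells, which is 4.95-fold lower, and -2.81 ± 0.23 with 393P cells, which is 7.01-fold lower. The difference between the lines was 0.50 ± 0.24. Of the 2 genes fitted, 1 was called lower with 344SQ cells, where 5.84% of 7992 genes were called and 2.36% were lower, 2 were called lower with 393P cells, where 10.7% were called and 5.27% were lower, and 0 differed between the lines, where 4.15% were called. Per kilobase, Serpina3n led the 5 genes in all 3 groups, at 42.9 CPM with 344SQ cells, 30.1 CPM with 393P cells and 214.8 CPM in CAFs alone. The carcinoma markers came to 12.3 to 28.0 CPM in sum with 344SQ cells, 19.7 to 90.9 CPM with 393P cells and 6.27 to 9.25 CPM in CAFs alone, and their part in these differences was not tested.

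**Figure D2:**
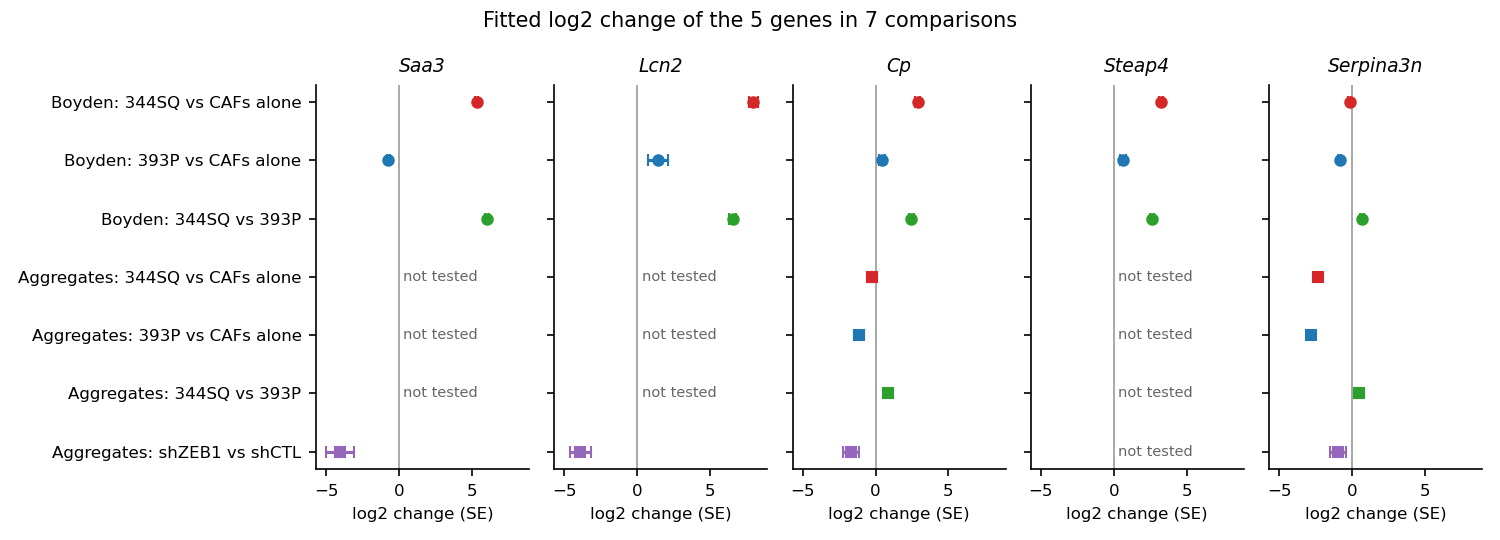
Fitted log2 change with its SE for each of the 5 genes in the 7 comparisons, Boyden chamber as circles and aggregates as squares, positive where the first-named group was higher. Genes that did not pass the filter on low counts are written as not tested. Cp stands at 2.89 for 344SQ against CAFs alone in the chamber and at -0.27 in the aggregates.

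In the shRNA aggregates, all 5 genes averaged lower when the 344SQ cells carried shZEB1 than when they carried shCTL, with wide spread between libraries. Zeb1 itself, the transcription factor the shRNA names, measured 143.5, 48.4 and 120.4 CPM in the shZEB1 libraries and 71.8, 104.8 and 50.3 CPM in the shCTL libraries. Its log2 change was 0.47 ± 0.53 (edgeR quasi-likelihood adjusted p = 0.896). The sorted CAFs express Zeb1 of their own and did not carry the shRNA, so this level does not check the knockdown.

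Saa3 measured 60.1, 8.80 and 21.1 CPM in the shZEB1 libraries and 386.8, 1126 and 28.05 CPM in the shCTL libraries. The groups overlapped, because shCTL replicate 3 lay below shZEB1 replicate 1. The log2 change was -4.05 ± 0.98, and -2.74 without shCTL replicate 2. Lcn2 measured 3.95, 11.7 and 17.9 CPM in the shZEB1 libraries and 65.6, 297.1 and 142.2 CPM in the shCTL libraries. These groups did not overlap, and the log2 change was -3.92 ± 0.72, between -4.53 and -3.21 with any 1 library left out.

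Cp measured 34.2, 30.8 and 35.9 CPM in the shZEB1 libraries and 128.5, 134.8 and 60.0 CPM in the shCTL libraries, without overlap, at a log2 change of -1.67 ± 0.53. Steap4 had 3, 1 and 6 counts in the shZEB1 libraries and 12, 22 and 4 in the shCTL libraries, a ratio of 0.219 after scaling with a 95% counting interval of 0.0974 to 0.448, and was not fitted. After scaling its groups did not overlap, but only just, with 3.84 CPM in shZEB1 replicate 3 and 3.87 CPM in shCTL replicate 3. Serpina3n measured 38.6, 91.0 and 65.3 CPM in the shZEB1 libraries and 158.6, 154.5 and 62.9 CPM in the shCTL libraries, with overlap, at -0.96 ± 0.53. Of the 4 genes fitted, 0 were called, as were 0% of 7801 genes, and 2 did not overlap, both lower, against 11.7% of genes, 5.49% lower. With no filter, Saa3 and Lcn2 were called lower, where 90 of 21430 genes were called and 44 were lower. DESeq2 also called Saa3 and Lcn2 lower, where it called 26 of the 21430 genes with any read and 12 were lower. How many of the 21430 DESeq2 gave an adjusted p was not recorded. The 5 genes were chosen for these values, so nothing is read from these calls.

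Other measures differed between these libraries too, and are first set beside Saa3. Carcinoma markers, given above, were highest in shCTL replicate 3, which had the least Saa3 of its group, and in shZEB1 replicate 2, which had the least Saa3 of its own. Xist had 2, 1 and 0 counts in the shZEB1 libraries and 18, 18 and 2 counts in the shCTL libraries. Mitochondrial genes took 27.6, 25.6 and 23.5% of counts in the shZEB1 libraries and 40.8, 36.2 and 26.1% in the shCTL libraries. The shCTL replicates 1 and 2, which had the most Saa3, thus had the largest mitochondrial shares and the most Xist counts, and the part of these measures in the result was not tested. Neutrophil markers summed to 0 to 69.8 CPM with shZEB1 and 0.967 to 52.8 CPM with shCTL, with S100a9 and Ly6g at 0 counts in both, and their part was not tested either. The sum of 9 macrophage markers was 48.3, 173.1 and 34.0 CPM with shZEB1 and 122.3, 83.5 and 96.7 CPM with shCTL. Of these, Adgre1, C1qa and C1qb were at 0 counts in both groups, and the part of macrophage markers was not tested.

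**Figure D3:**
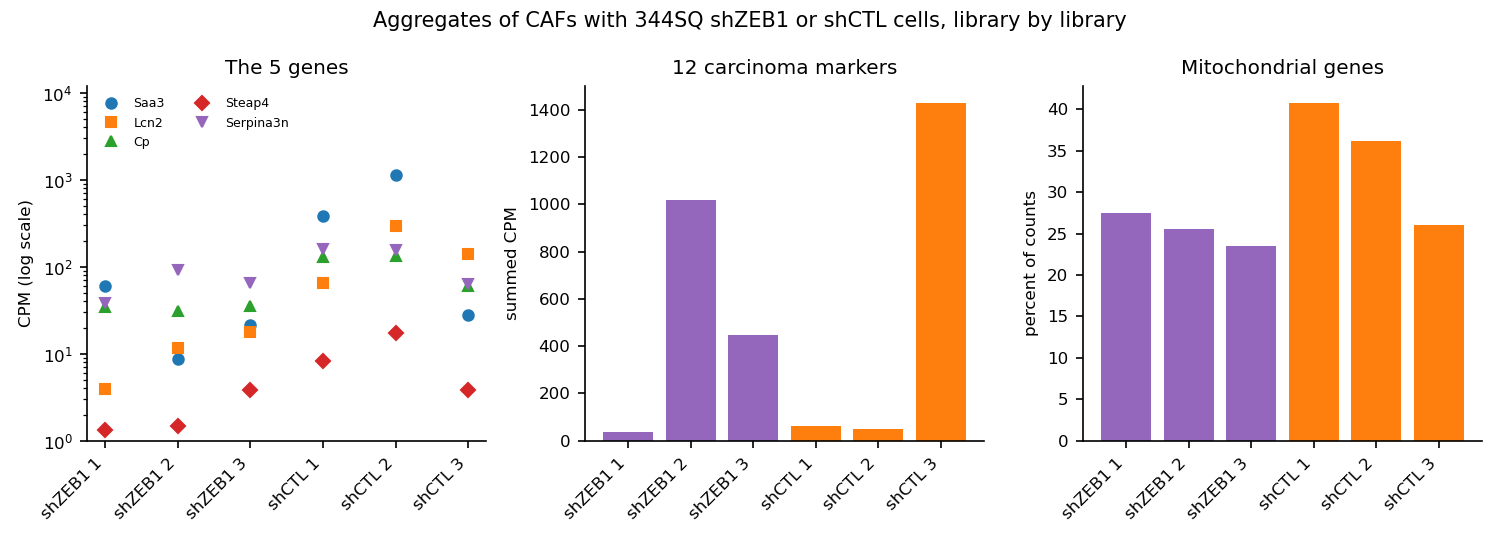
The 6 shRNA libraries one by one: CPM of the 5 genes on a log axis (left), summed CPM of 12 carcinoma markers (middle) and percent of counts on mitochondrial genes (right). Saa3 is highest in shCTL replicates 1 and 2, where carcinoma markers sum to 62.9 and 49.6 CPM, and shCTL replicate 3 has the most carcinoma-marker RNA at 1429 CPM.

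The parental and shCTL aggregates of CAFs with 344SQ cells stood far apart in their own sets. Saa3 averaged 513.7 ± 560 CPM in the shCTL aggregates and 0.715 ± 0.635 CPM in the parental 344SQ aggregates (SD, n = 3 each). Lcn2 averaged 168.3 ± 118 CPM in the shCTL aggregates and 0.965 ± 0.935 CPM in the parental 344SQ aggregates. The sets came as separate counts and were scaled apart, so batch and shRNA vector cannot be told apart here, and no test was made. Carcinoma markers summed to 49.6 to 1429 CPM in the shCTL and 12.3 to 28.0 CPM in the parental aggregates. Macrophage markers summed to 83.5 to 122.3 CPM and 20.6 to 26.1 CPM. Mitochondrial genes took 26.1 to 40.8% and 19.1 to 24.3% of counts. The part of these differences was not tested.

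Among other genes of the acute phase pathways, 344SQ cells in the Boyden chamber moved inducers, receptors and regulators in both directions. Of 136 genes in 6 lists, 82 were tested, and 27 were called higher and 15 lower at an adjusted p under 0.05 (edgeR quasi-likelihood test, Benjamini-Hochberg over 14040 genes, of which 7.43% were higher and 7.44% lower). The median log2 change over the 82 was 0.05, beside 0.01 over all genes. With 393P cells, 6 were called higher and 10 lower, where 7.68% of all genes were higher and 7.96% lower. The median was -0.09, beside 0.00 over all genes. Between the lines, 23 were higher with 344SQ cells and 1 was lower, where 3.88% of all genes were called and 2.52% were higher. The median there was 0.12, beside 0.00 over all genes. These lists were drawn up with earlier results of these data known, so their counts are no independent support for a direction.

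Of the transcription factors and feedback genes, 8 of 20 tested were higher with 344SQ cells and 2 lower. Tnfaip3, which encodes the NF-kB inhibitor A20, averaged 97.0 ± 8.29 CPM with 344SQ cells and 36.0 ± 4.80 CPM in CAFs alone (SD, n = 5 each), a log2 change of 1.43 ± 0.09 (edgeR adjusted p = 3.35e-12). Nfkbia, the gene of the NF-kB inhibitor IkB-alpha, averaged 96.1 ± 7.87 CPM with 344SQ cells and 46.9 ± 2.79 CPM in CAFs alone, at 1.03 ± 0.07 (edgeR adjusted p = 4.42e-11). Both are classical NF-kB target genes, and all 5 values with 344SQ cells lay above all 5 of CAFs alone. Zc3h12a, which encodes a ribonuclease of inflammatory messages, rose by 1.65 ± 0.23 (edgeR adjusted p = 9.64e-06), and Cebpd, a C/EBP factor of the acute phase, rose by 1.03 ± 0.15 (edgeR adjusted p = 1.78e-05). The 2 that fell were Nr3c1, the glucocorticoid receptor gene, at -0.33 ± 0.07 (edgeR adjusted p = 0.00139), and Stat3 at -0.19 ± 0.06 (edgeR adjusted p = 0.0427). With 393P cells, Tnfaip3 rose by 0.46 ± 0.09 (edgeR adjusted p = 0.000739) and Cebpg by 0.24 ± 0.08 (edgeR adjusted p = 0.0398), and none of the 20 fell. Between the lines, 9 of the 20 were higher with 344SQ cells and 0 lower, with Nfkbia at 1.08 ± 0.07 (edgeR adjusted p = 4.95e-11) and Tnfaip3 at 0.97 ± 0.08 (edgeR adjusted p = 9.4e-09).

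**Figure D4:**
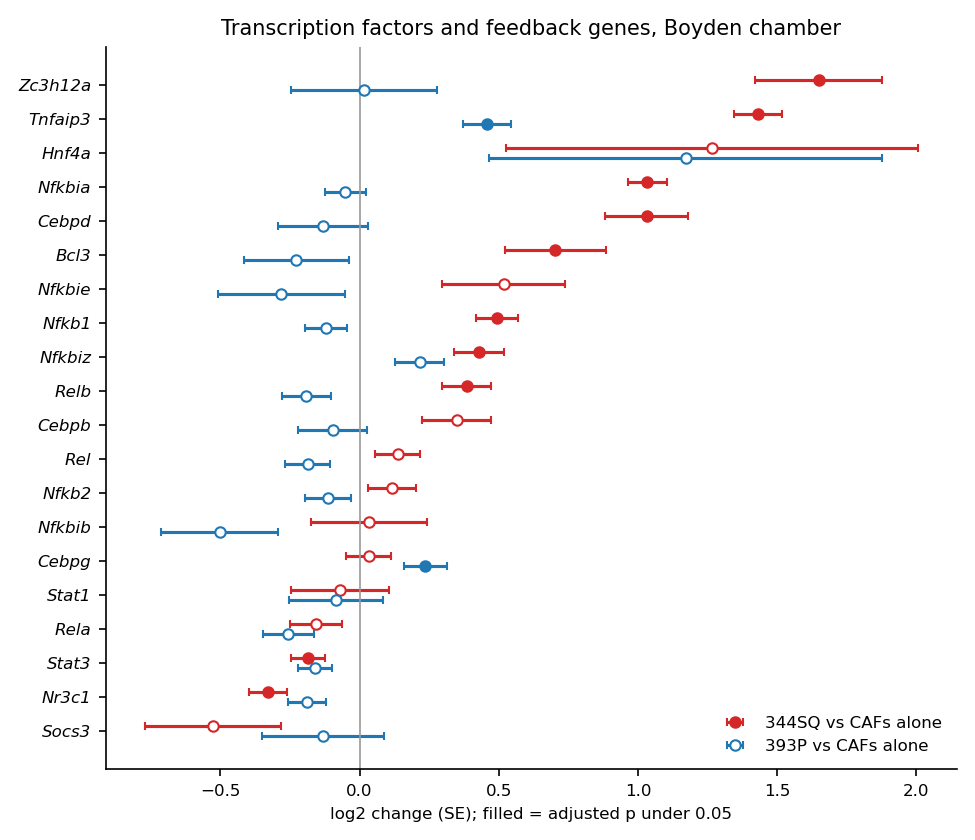
Log2 change with its SE of the 20 transcription factor and feedback genes tested in the Boyden chamber, for 344SQ (red) and 393P (blue) against the same CAFs-alone libraries, with filled dots at an adjusted p under 0.05. Tnfaip3 stands at 1.43 with 344SQ cells and at 0.46 with 393P cells.

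The list of cytokines that induce the acute phase split, but it also held Il1rn, whose product blocks an inducer. Of 7 tested, 3 were higher and 4, Il1rn among them, lower with 344SQ cells. Il6, the main inducer in the liver, averaged 33.9 ± 1.77 CPM with 344SQ cells and 14.2 ± 2.20 CPM in CAFs alone (SD, n = 5 each), at 1.26 ± 0.10 (edgeR adjusted p = 1.28e-09). Lif, a cytokine of the same family, rose by 1.03 ± 0.08 (edgeR adjusted p = 3.86e-10). Il1rn, the interleukin-1 receptor antagonist, changed by -0.93 ± 0.14 (edgeR adjusted p = 2.54e-05), and Il33 by -0.78 ± 0.17 (edgeR adjusted p = 0.00252). With 393P cells 1 of the 7 was called, Il33, at -0.86 ± 0.17 (edgeR adjusted p = 0.000918). Of 23 receptors and signal transducers, 6 were higher and 2 lower with 344SQ cells, led by the kinase gene Jak2 at 0.77 ± 0.06 (edgeR adjusted p = 4.8e-10) and the tumour necrosis factor receptor gene Tnfrsf1b at 0.71 ± 0.08 (edgeR adjusted p = 3.34e-07). With 393P cells 1 was higher, Jak2 at 0.48 ± 0.06 (edgeR adjusted p = 5.29e-06), and 1 lower, Myd88 at -0.42 ± 0.12 (edgeR adjusted p = 0.0167).

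Of 36 acute phase relatives, 7 were read deeply enough to test in the chamber, and 4 were higher and 1 lower with 344SQ cells. Lbp, the lipopolysaccharide-binding protein gene, averaged 25.0 ± 3.44 CPM with 344SQ cells and 11.5 ± 0.506 CPM in CAFs alone (SD, n = 5 each), at 1.12 ± 0.12 (edgeR adjusted p = 1.52e-07). C3, the central complement gene, rose by 0.31 ± 0.09 with 344SQ cells (edgeR adjusted p = 0.0158) and changed by -0.64 ± 0.09 with 393P cells (edgeR adjusted p = 1.83e-05). C4b, another complement gene, fell with both, at -1.01 ± 0.19 with 344SQ cells (edgeR adjusted p = 0.000411) and -0.98 ± 0.18 with 393P cells (edgeR adjusted p = 0.000436). With 393P cells 4 of the 7 were lower and 0 higher. Of 24 iron and copper genes, 6 were higher and 6 lower with 344SQ cells. Slc39a14, which encodes an importer of iron and zinc, rose by 0.64 ± 0.07 (edgeR adjusted p = 3.82e-07), and Lrp2, the megalin gene, whose product takes up lipocalin 2, changed by -0.66 ± 0.09 (edgeR adjusted p = 9.64e-06). Steap2, the abundant relative of Steap4, rose by 0.38 ± 0.05 (edgeR adjusted p = 5.76e-06). With 393P cells 3 of the 24 were higher and 4 lower. Of 9 genes for receptors or target proteases of the 5 products, Scarb1 alone was tested in the chamber, and it was called with neither line.

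In the first aggregates, 5.84% of 7992 genes were called with 344SQ cells and 10.7% with 393P cells, with 2.36% and 5.27% lower. Of the 136 pathway genes, 64 were tested there. With 344SQ cells 3 were higher and 8 lower, and with 393P cells 3 were higher and 13 lower. The complement genes stood lowest. C3 averaged 191.3 ± 29.0 CPM with 344SQ cells and 75.4 ± 38.2 CPM with 393P cells, against 1036 ± 121 CPM in CAFs alone (SD, n = 3 each), at -2.43 ± 0.22 (edgeR adjusted p = 1.21e-08) and -3.75 ± 0.24 (edgeR adjusted p = 2.45e-12) on the log2 scale. C4b fell by 2.04 with 344SQ cells (edgeR adjusted p = 1.02e-05) and fell by 2.69 with 393P cells (edgeR adjusted p = 9.33e-08). Steap3, the metalloreductase of the transferrin cycle, fell by 1.79 with 344SQ cells (edgeR adjusted p = 1.36e-05) and fell by 2.24 with 393P cells (edgeR adjusted p = 2.07e-07). Il1r1, the interleukin-1 receptor gene, changed by -1.03 ± 0.18 with 344SQ cells (edgeR adjusted p = 0.000287) and by -1.27 ± 0.18 with 393P cells (edgeR adjusted p = 7.83e-06). In all, 4 of 22 receptors and transducers were lower with 344SQ cells and 5 with 393P cells, and 0 were higher with either. Scarb1, a receptor gene for serum amyloid A, changed by -0.74 with 393P cells (edgeR adjusted p = 0.0342).

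Cytokine genes differed between the lines in the aggregates. Il33 averaged 218.0 ± 151 CPM with 344SQ cells and 8.28 ± 8.29 CPM with 393P cells, against 48.4 ± 10.9 CPM in CAFs alone (SD, n = 3 each), and the lines differed by 4.81 ± 0.44 on the log2 scale (edgeR adjusted p = 7.9e-09). Il6 went the other way, at 7.97 ± 3.76 CPM with 344SQ cells and 27.5 ± 10.7 CPM with 393P cells, a log2 difference of -1.82 ± 0.43 (edgeR adjusted p = 0.00952). In the chamber Il6 was the higher with 344SQ cells, by 1.29 ± 0.11 against 393P cells (edgeR adjusted p = 3.46e-09), and the difference between the culture formats was not tested. Of 15 transcription factors and feedback genes tested in the aggregates, 0 were called with 344SQ cells by edgeR and 1, Cebpd, with 393P cells at -1.57 ± 0.45 (edgeR adjusted p = 0.0197). Against 393P cells, 344SQ cells left 6 of the 64 higher and 1 lower, where 4.15% of 7992 genes were called. Among the higher were the ferritin light chain gene Ftl1 at 0.90 ± 0.17 (edgeR adjusted p = 0.00112) and Fth1 at 0.79 ± 0.17 (edgeR adjusted p = 0.00395).

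In the shRNA aggregates, 0 of 64 pathway genes were called by edgeR, as were 0 of all 7801 genes. Of the 64, 7 had an unadjusted p under 0.05, as had 466 of all 7801. DESeq2 called 1 pathway gene, the receptor gene Tlr2, where it called 26 of the 21430 genes with any read. The median log2 change was -0.34 over these 64, beside -0.02 over all 7801 genes. The transcription factor and feedback list had a median of -0.73 over 18 genes, the iron and copper list -0.46 over 17, and the receptor list -0.03 over 18. The acute phase relatives had a median of -0.80 over 5 genes, the list of inducing cytokines 0.76 over 4, and the protein partners 0.06 over 2.

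The genes with the most similar pattern over the 8 groups were ranked by root mean square distance among 6817 genes. Group means of log2(CPM + 1), centred within each set, were compared. Candidates had passed the filter on low counts in all 3 sets, with the 5 genes added whether they passed or not. Saa3, Lcn2 and Steap4 did not pass in the first aggregates, where other genes that failed could not be neighbours. Nearness among the 5 is thus no support for a shared pattern. The nearest gene to Saa3 was Lcn2 at 0.58, followed by Cxcl1 at 0.86, Cp at 1.12, Steap4 at 1.14 and Ch25h at 1.17. The nearest to Lcn2 were Saa3 at 0.58, Cxcl1 at 0.65, Cp at 0.79, Ch25h at 0.87 and Mmp3 at 0.97. Cxcl1 and Ch25h, which encode a neutrophil chemokine and cholesterol 25-hydroxylase, were thus near both. Cp was nearest to Ccl7 at 0.43, Ch25h at 0.43, Adamts7 at 0.44, Slc7a2 at 0.46 and Ccl2 at 0.47, and Steap4 to Ccl7 at 0.45, Mt2 at 0.52, Cp at 0.62, Mmp3 at 0.67 and Bnip3 at 0.71. Serpina3n had none of the other 4 among its neighbours, which were C4b at 0.23, Steap3 at 0.26, Per2 at 0.27, Smoc1 at 0.27 and Tnxb at 0.28. Distances grow with the size of a gene's swings, so those of Saa3 and Lcn2 are not comparable with those of Serpina3n.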

How the data were processed

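RNA was sequenced in bulk from mouse CAFs. The authors deposited unnormalised read counts for each gene, made with STAR and HTSeq on mm10 per the submitters' processing notes. Their versions, annotation release, strand setting and filters were not given in the sources used here. The 3 tables hold 60 libraries, and counts of the 3 technical libraries were added up within each Boyden replicate. Symbols came from the files; of 48440 identifiers, 48058 matched GENCODE M21 without the version number, which is an annotation of GRCm38, the assembly of mm10.

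Each table was fitted alone with edgeR 4.0.16 in R 4.3.3: filterByExpr (leaving 14040 Boyden, 7992 aggregate and 7801 shRNA genes), scaling by the trimmed mean of M values, a mean per group, 2-sided quasi-likelihood tests, and Benjamini-Hochberg adjustment over all genes tested, with calls under 0.05. The SE is the size of the log2 change divided by the square root of F. The edgeR biological coefficient of variation came to 8.58% for Boyden, 16.2% for aggregate and 61.7% for shRNA samples. DESeq2 1.42.0 was an alternative. The edgeR procedure was tested on simulated counts with known 4-fold changes. It recovered 99.5% of them for Boyden, 92.2% for aggregate and 13.2% for shRNA samples, with 11, 8 and 1 false calls. The 0 calls in the shRNA set therefore do not show that no gene changed. No 2 replicates were identical or within counting noise of each other.

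The 5 genes and all lists were chosen with earlier results of these data known. The text names the 5 genes, up to 4 called genes of smallest p per list and comparison, and the 5 genes nearest each of the 5 in pattern; Hps3, Zeb1, Nr3c1, Stat3, Tlr2, Csf3 and the paralogs were added after their values were seen. Same-numbered samples did not deviate together (correlations of -0.303 to 0.265 in the Boyden table, -0.0299 to 0.0717 in the aggregates and -0.0299 to 0.126 in the shRNA table), so replicate numbers were not used as pairs.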

Additional observations from a re-analysis of the deposited data

Results flagged for a closer look

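Steap4 in CAFs alone in the Boyden chamber had 1 sample apart from the rest: replicate 5 measured 4.87 CPM, against 2.83 to 3.26 CPM in the other 4. Of 15 sets of 5 values checked in this way, this was the only one, and chance marks about 1 in 20.

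Saa3 moved in opposite directions with the 2 lines in the chamber, at a log2 change of 5.32 with 344SQ cells and -0.74 with 393P cells, each against the same CAFs-alone libraries. All 5 replicates of each line lay on their own side of the CAFs-alone mean of 54.7 CPM. The difference was not tested, because the gene was chosen for it.

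Cp stood on opposite sides of its CAFs-alone mean in the 2 culture formats with both lines. The log2 change with 344SQ cells was 2.89 in the chamber and -0.27 in the aggregates, and with 393P cells it was 0.43 in the chamber and -1.14 in the aggregates. These differences were not tested. The aggregate mean of 81.0 CPM in CAFs alone included a library at 145.4 CPM, and without that library the aggregate change with 344SQ cells was 0.39.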

How the results depend on the processing

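Of 425 recomputed log2 changes of the 5 genes, 397 moved by less than the replicate spread, 25 moved by more and 3 changed sign. The sign changed for Serpina3n with 344SQ cells in the Boyden chamber from the first technical library alone (0.29), for Lcn2 with 393P cells from the second alone (-1.25), and for Cp with 344SQ cells in the aggregates without CAFs-alone replicate 2 (0.39; all single omissions ran from -0.61 to 0.39). With 1 technical library in place of 3, 500, 513 and 739 genes were called for 344SQ against CAFs alone, 609, 199 and 1133 for 393P against CAFs alone, and 73, 280 and 152 between the lines, against 2087, 2195 and 545 with all 3, at a fraction of the depth. Pathway genes called were then 14, 16 and 21 with 344SQ cells, 4 and 5 with 393P cells from the first and second library, and 9 between the lines from the first. Lcn2 with 344SQ cells was at 8.28 by DESeq2, 6.70 and 7.16 from the first and second library, and 7.67 to 8.85 with 1 replicate left out. Lcn2 with 393P cells was at 1.73 from the first and 1.74 from the last library and 1.12 to 2.30 with 1 replicate left out. Between the lines Lcn2 was at 4.97, 8.41 and 6.30 from single libraries and 6.44 to 6.85 with 1 replicate left out. Serpina3n was at -0.41 with 344SQ cells from the second library, at -0.59 and -1.21 with 393P cells from the second and last, and at 1.08, 0.18 and 0.96 between the lines. Cp with 393P cells was at 0.071 from the second library and Steap4 at 0.27 from the last. In the shRNA aggregates, 90 genes were called with no filter, 26 by DESeq2 and 1 with a replicate block, and 1 pathway gene with no filter (Csf3) and 1 by DESeq2 (Tlr2), against 0; 466 of 7801 genes had an unadjusted p under 0.05. With 1 library left out, 284 to 421 genes were called for 344SQ against CAFs alone in the aggregates (467 with all; the lowest without CAFs-alone replicate 3), and 4 to 9 pathway genes between the lines (7 with all; the lowest without 393P replicate 1). Outside the shRNA set, the replicate block moved no count by over 1.5 times, with 467 genes called for 344SQ against CAFs alone in the aggregates. In the first aggregates, Saa3, Lcn2 and Steap4 had at most 10 counts in a library, which limits the precision of their ratios.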
